A study of Mus musculus with 3 samples.

Results

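Cytotoxic granule genes and the thrombin receptor gene were followed across sections of mouse thymus profiled by spatial transcriptome sequencing (stRNA-seq). The 8 genes were chosen by symbol from the 54838 genes listed, and all 8 had UMIs (unique molecular identifiers, each counting 1 captured transcript). They are Gzma, Gzmb, Gzmk, Prf1, Nkg7, Klrd1 and Ccl5, here called the 7 cytotoxic genes, and F2r. The study placed sections of thymus, embedded on dry ice, on S1000 slides, which carry barcoded capture spots in a dense grid, to ask how the thymus of mice lacking p53 differs from the wild-type organ. There were 3 sections, each from 1 female C57BL/6 mouse: 2 from Trp53-/- (KO) mice, called KO1134 (17 weeks of age) and KO1308 (21 weeks) after their mouse numbers, and 1 from a Trp53+/+ (WT) mouse of 17 weeks. The methods describe knockout mice bred from heterozygous mothers, and the labels name no other allele or agent for the groups. With 1 WT section no test between genotypes was possible, genotype cannot be told apart from other differences between these mice, age included for KO1308, and the only spread between mice is that between the 2 KO sections.

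Cytotoxic lymphocytes, that is CD8 T cells, natural killer (NK) cells and some gamma-delta T cells, keep perforin and granzymes in secretory granules and release them onto target cells. Perforin, from Prf1, opens the target membrane, and the granzymes are serine proteases that then enter: granzyme A (Gzma) and granzyme K (Gzmk) cut after basic residues, and granzyme B (Gzmb) cuts after aspartate and starts apoptosis. Nkg7 is a granule membrane protein, Klrd1 encodes CD94, the partner of NKG2 receptors, and Ccl5 is a chemokine stored and secreted by memory and effector T cells. F2r encodes PAR1, the G protein-coupled receptor that thrombin activates by cutting its extracellular end, and ligand and receptor databases pair granzyme A with it. Most cells of the thymus are immature T cells, which move from the cortex to the medulla as they mature, and Ccr7 and S1pr1 are among the genes they gain on the way out.

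The genes lie at separate places in the mouse genome. On GRCm38, Gzma spans chr13:113093825-113100981 on the minus strand, Gzmk spans chr13:113171608-113225908 on the minus strand, and F2r spans chr13:95601803-95618487 on the minus strand of the same chromosome. Gzmb spans chr14:56258838-56262260, Prf1 chr10:61297833-61304680, Nkg7 chr7:43437073-43438249, Ccl5 chr11:83525778-83530518 and Klrd1 chr6:129591782-129598775. The Gzmk span overlaps Esm1 on the other strand. In the RefSeq promoter windows of build GRCm38.p6, which run from 250 bases before to 50 after the start of a gene, 6 of the 8 genes had an entry. Ccl5 and Klrd1 had none. The window of each gene was searched on both strands for the Runx core TGTGGT, bound by the Runx3 factor of cytotoxic T cells, and for the AP-1 site TGAGTCA. The 5 windows with a match are shown so that the promoters of these genes can be read beside one another. Capitals mark the Runx and AP-1 letters on either strand, and no Runx match overlapped an AP-1 match. The windows are chr13:113100932-113101231, minus strand, for Gzma, chr14:56262285-56262584, minus strand, for Gzmb, chr7:43436888-43437187, plus strand, for Nkg7, chr10:61297586-61297885, plus strand, for Prf1, and chr13:95618417-95618716, minus strand, for F2r.
Gzma: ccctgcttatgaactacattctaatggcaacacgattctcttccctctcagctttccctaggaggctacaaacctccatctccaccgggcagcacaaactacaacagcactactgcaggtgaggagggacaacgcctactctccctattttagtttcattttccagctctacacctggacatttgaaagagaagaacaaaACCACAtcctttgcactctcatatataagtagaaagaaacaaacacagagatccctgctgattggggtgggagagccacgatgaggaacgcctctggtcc
Gzmb: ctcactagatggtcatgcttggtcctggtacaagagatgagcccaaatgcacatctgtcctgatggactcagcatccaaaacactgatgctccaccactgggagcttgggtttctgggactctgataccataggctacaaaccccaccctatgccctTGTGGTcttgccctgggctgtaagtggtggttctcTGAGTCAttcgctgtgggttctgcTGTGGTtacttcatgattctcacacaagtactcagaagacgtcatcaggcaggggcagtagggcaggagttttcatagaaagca
Nkg7: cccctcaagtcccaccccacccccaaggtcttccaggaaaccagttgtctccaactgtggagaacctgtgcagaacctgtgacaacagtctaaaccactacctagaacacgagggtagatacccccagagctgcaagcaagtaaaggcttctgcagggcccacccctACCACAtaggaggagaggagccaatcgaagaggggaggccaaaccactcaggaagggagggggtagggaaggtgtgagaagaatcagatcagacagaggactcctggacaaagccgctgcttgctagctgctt
Prf1: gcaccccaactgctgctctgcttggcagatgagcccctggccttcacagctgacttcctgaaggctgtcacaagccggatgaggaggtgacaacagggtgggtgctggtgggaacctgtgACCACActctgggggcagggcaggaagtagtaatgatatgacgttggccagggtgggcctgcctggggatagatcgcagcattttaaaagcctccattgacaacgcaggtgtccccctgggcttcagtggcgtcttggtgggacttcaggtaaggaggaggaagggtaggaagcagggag
F2r: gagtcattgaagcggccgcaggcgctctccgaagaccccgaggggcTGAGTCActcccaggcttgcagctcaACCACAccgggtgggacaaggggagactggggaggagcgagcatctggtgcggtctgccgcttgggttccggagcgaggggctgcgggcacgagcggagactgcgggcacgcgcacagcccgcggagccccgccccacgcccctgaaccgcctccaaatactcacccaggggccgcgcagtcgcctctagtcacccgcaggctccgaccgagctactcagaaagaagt

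The Runx letters stood in 5 of the 6 member windows and in 16.8% of all 32851 windows of the same length. Gzmb held them at both 93 and 34 bases before the start on its own strand, whereas Gzma (50 bases before), Nkg7 (83 before), Prf1 (130 before) and F2r (178 before) held them on the opposite strand. The AP-1 letters stood in 2 of the 6, Gzmb (58 bases before) and F2r (204 before), and in 5.2% of all windows. The GC box GGGCGG stood in the F2r window alone among the 6, against 35.7% of all windows. TATAAA stood in 0 of the 6, against 13.6%, and the p53 half-site in 0 of the 6, against 8.36%. These matches describe the letters of the windows and were not set against the levels.

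Spots were joined into square bins of 27 µm, and bins with at least 300 genes were kept, which left 12022 tissue bins in KO1134, 16239 in KO1308 and 27103 in WT. The sections differed in depth, with a median of 2643, 869 and 1357 UMIs per bin, so levels are given as CPM (the UMIs of a gene scaled to 1 fixed total of UMIs over the same bins) with exact Poisson 95% intervals, and ratios of CPM with exact 95% intervals. Both cover counting error only. Trp53 itself stood at 14.5 CPM in KO1134, 25.2 in KO1308 and 80.0 in WT, from 324, 350 and 3073 UMIs in the thymus bins. The deleted part of Trp53 is not given in the sources used here, and tags from outside it would still be counted. Windows of 7 × 7 bins were sorted by marker genes into cortex (5606, 7397 and 15968 bins, in the order KO1134, KO1308, WT), medulla (3035, 6101 and 8752), a B-cell zone found in the KO sections alone (1995 and 518) and tissue outside the thymus area (1386, 2223 and 2383). None of the 8 genes was used in that sorting. After the values were seen, the last area was split into bins with at least the medullary share of the epithelial genes Krt5, Krt14, Epcam and Cldn4, called the medullary core (640, 985 and 2289 bins), and the rest, called surrounding tissue (746, 1238 and 94 bins), where the adipocyte genes reached 14601 and 12733 CPM in the KO sections. Ccr7, which the sorting did not use, went from 17.3, 12.1 and 12.2 CPM in cortex to 96.5, 66.1 and 64.8 in medulla. The cortex genes Rag1 and Dntt, also not used, fell less in WT than in the KO sections. Rag1 went from 52.3, 439 and 688 CPM to 18.0, 224 and 642, and Dntt from 606, 849 and 1233 to 270, 439 and 980. The cut between cortex and medulla was set in each section at its own share of the medulla genes, at 28.3%, 24.9% and 7.81%. The areas were thus drawn at unlike cuts, and the area called medulla was less set apart from cortex in WT. The part of this in the ratios of these areas was not tested. The section of KO1134 went against its cortex label in part, with 52.3 CPM of Rag1 in the area called cortex, against 439 in KO1308 and 688 in WT, and with Cd8a at 62.1 CPM against 910 and 1982. In the same bins the gamma-delta genes (Trdc and 3 Tcrg constant genes) summed to 1536 CPM against 326 and 230, and Cpa3 to 487 against 5.94 and 6.54. The KO sections are therefore mostly described separately. The methods also give the KO sections a longer permeabilisation than the WT section, and the part of this in the levels was not tested.

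**Figure D1:**
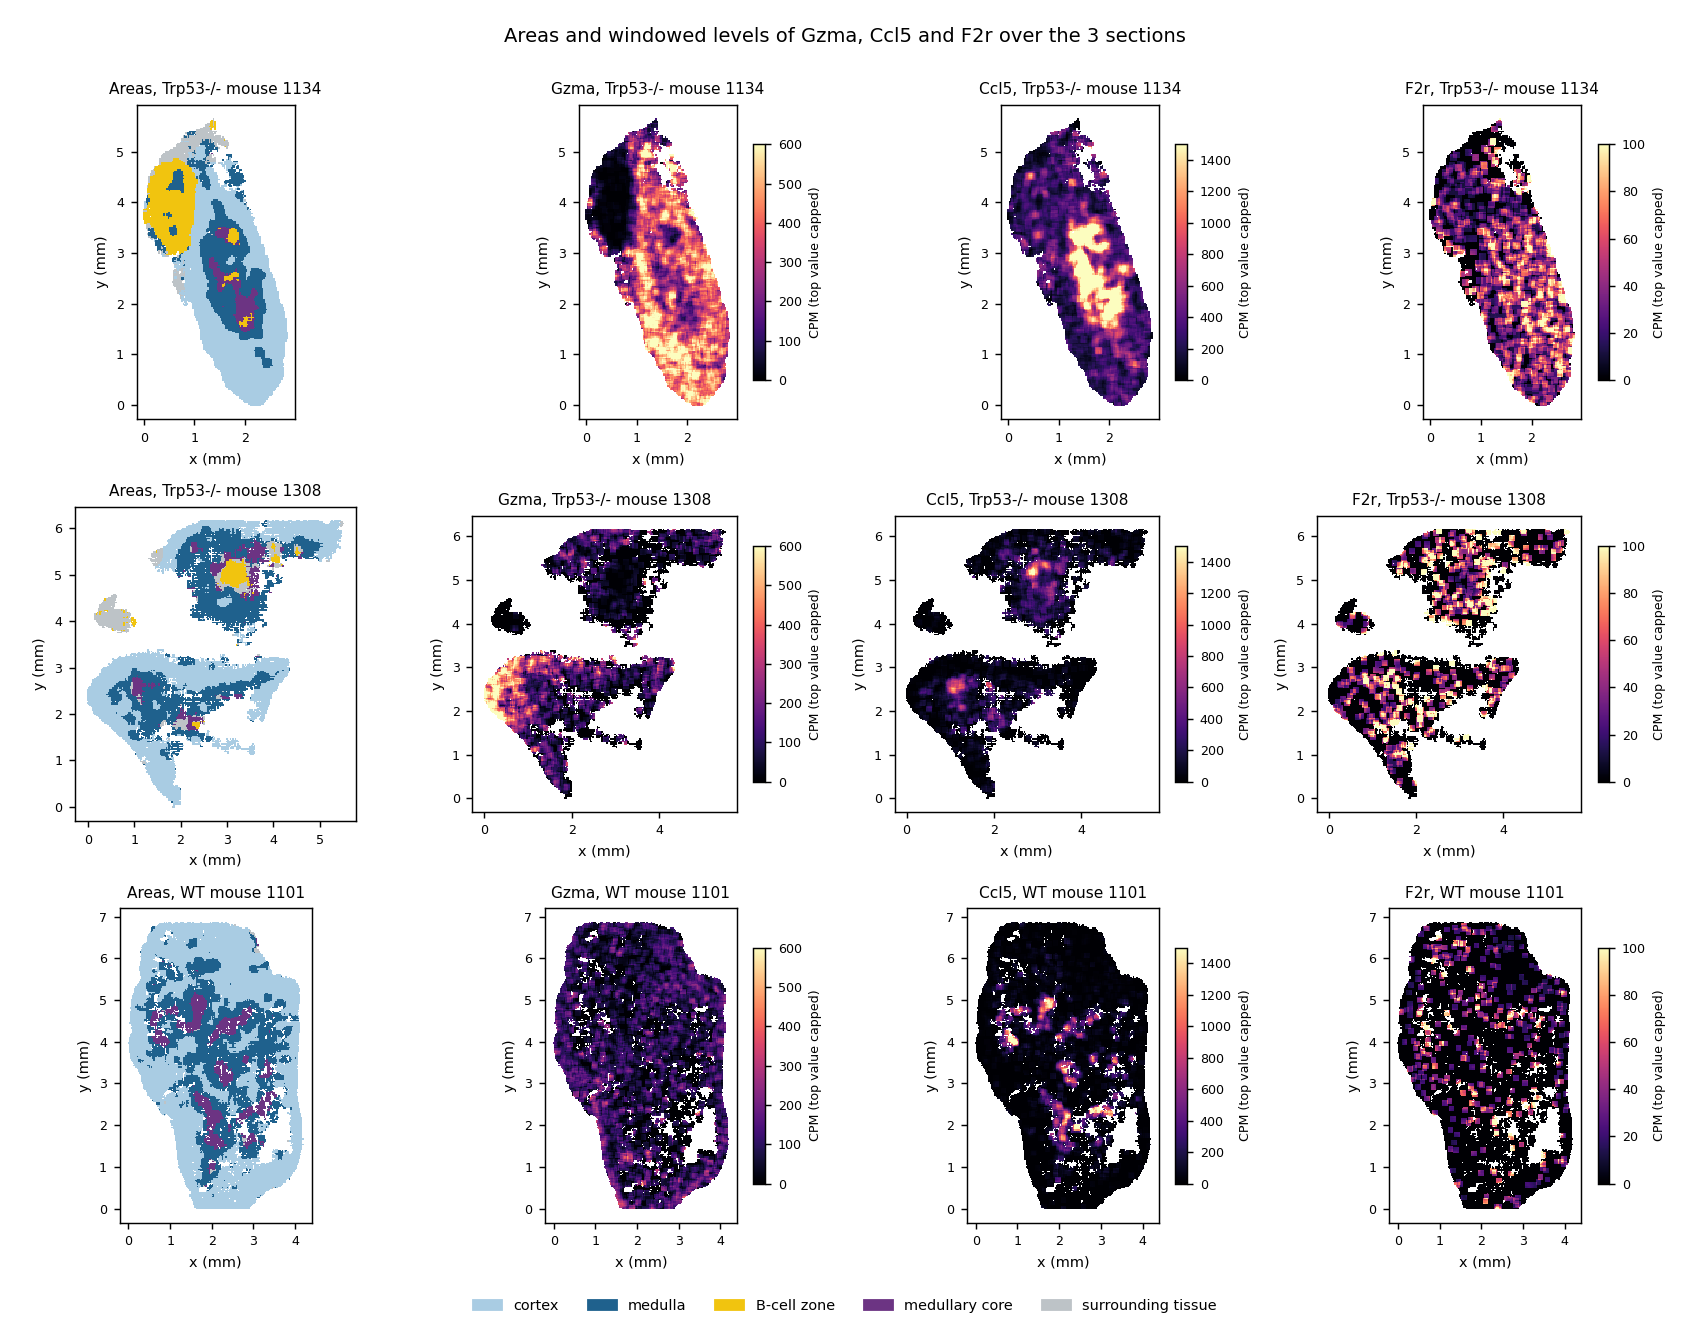
Maps of the 3 sections in mm, 1 row per mouse, with the areas in the first column and the windowed CPM of Gzma, Ccl5 and F2r (windows of 135 µm, colours capped at the top value of each scale) in the others. Gzma filled the cortex of KO1134 and 1 end of the larger tissue piece of KO1308, Ccl5 peaked in the middle of the medulla of every section, and F2r was spread over both KO sections.

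Over cortex and medulla together, each of the 8 genes stood above its WT level in KO1134 and in KO1308, by 1.58-fold to 20.4-fold. Of the 8 genes, 4 (Gzmk, Ccl5, Klrd1 and F2r) were at least 2-fold higher in both KO sections, where 12.0% of the 18625 genes with at least 50 UMIs were. None of the 8 was at least 2-fold lower in both, where 1.84% of genes were. The median ratio to WT over all these genes was 1.06 in KO1134 and 1.18 in KO1308, a shift of 0.24 on the log2 scale in the latter, and the ratios to WT are not divided by it. Cortex and medulla leave out the medullary core, which held 1398 WT Ccl5 UMIs against 1340 in those 2 areas. In the core the Ccl5 ratio of KO1308 to WT was 0.825 (0.747 to 0.909). The 2-fold call of Ccl5 thus rests on areas drawn without the core. In tissue sections, fewer cells of a type and less RNA per cell cannot be told apart.

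Gzmb, Ccl5 and Gzmk differed most between the KO mice, by 10.6-fold, 5.58-fold and 5.32-fold. Gzma stood at 408 CPM (95% interval 400 to 416) in KO1134, 156 (149 to 162) in KO1308 and 98.8 (95.7 to 102) in WT, from 9137, 2167 and 3795 UMIs, which is 4.13-fold and 1.58-fold above WT. Gzmb stood at 54.9, 5.18 and 3.28 CPM, 16.8-fold (13.9 to 20.3) and 1.58-fold (1.16 to 2.12) above WT. The gap between the KO sections was thus wider than the distance of KO1308 from WT. Gzmk, known from memory-like CD8 T cells, was the granzyme with the widest gap from WT in both, at 28.7, 5.39 and 1.41 CPM, or 20.4-fold (15.5 to 27.5) and 3.83-fold (2.67 to 5.55). Its WT level rested on 54 UMIs. Perforin did not follow this order. Prf1 stood at 5.27 CPM in KO1134, 5.75 in KO1308 and 3.05 in WT, the KO1134 to KO1308 ratio was 0.916 (0.684 to 1.23), and its ratio to WT was 1.81 ± 0.112 (SD, n = 2 KO sections).

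The other cytotoxic genes kept the order KO1134, KO1308, WT. Ccl5 stood at 534, 95.8 and 34.9 CPM, 15.3-fold (14.5 to 16.2) and 2.75-fold (2.54 to 2.97) above WT. Nkg7 stood at 114, 37.7 and 22.5 CPM, 5.05-fold and 1.67-fold above. Klrd1 was closer between the KO sections, at 42.8, 29.8 and 14.7 CPM, 2.92-fold (2.63 to 3.24) and 2.04-fold (1.79 to 2.31) above WT. Summed over the 7 genes the level was 1188, 335 and 179 CPM, and the mean ratio of 4.26 ± 3.37 (SD, n = 2) was carried by KO1134 at 6.65 against 1.88 in KO1308. The make-up of the sum also shifted: Gzma gave 55.3% of its UMIs in WT, 46.4% in KO1308 and 34.3% in KO1134, and Ccl5 gave 19.5%, 28.6% and 45.0%.

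F2r and Klrd1 came next to Prf1 in how little the KO mice differed. F2r stood at 42.2 CPM (39.5 to 45.0) in KO1134, 29.7 (26.9 to 32.7) in KO1308 and 9.61 (8.65 to 10.6) in WT, 4.39-fold and 3.09-fold above WT, a mean ratio of 3.74 ± 0.92 (SD, n = 2), and 1.42-fold (1.26 to 1.60) apart between the KO mice. The intervals of the 3 sections did not overlap. To compare shares of bins at 1 depth, each bin was thinned to 500 UMIs: F2r was then found in 2.32% and 1.26% of KO cortex bins against 0.520% in WT, and in 2.32% and 2.11% of medulla bins against 0.587%. Unthinned, the shares were 9.15%, 2.43% and 1.45% in cortex. The same thinning left Gzma in 18.9%, 8.49% and 4.55% of cortex bins, against 59.6%, 16.1% and 14.5% before it, and Ccl5 in 31.5%, 7.06% and 3.68% of medulla bins. It left out 51, 1181 and 956 cortex bins that were shallower.

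**Figure D2:**
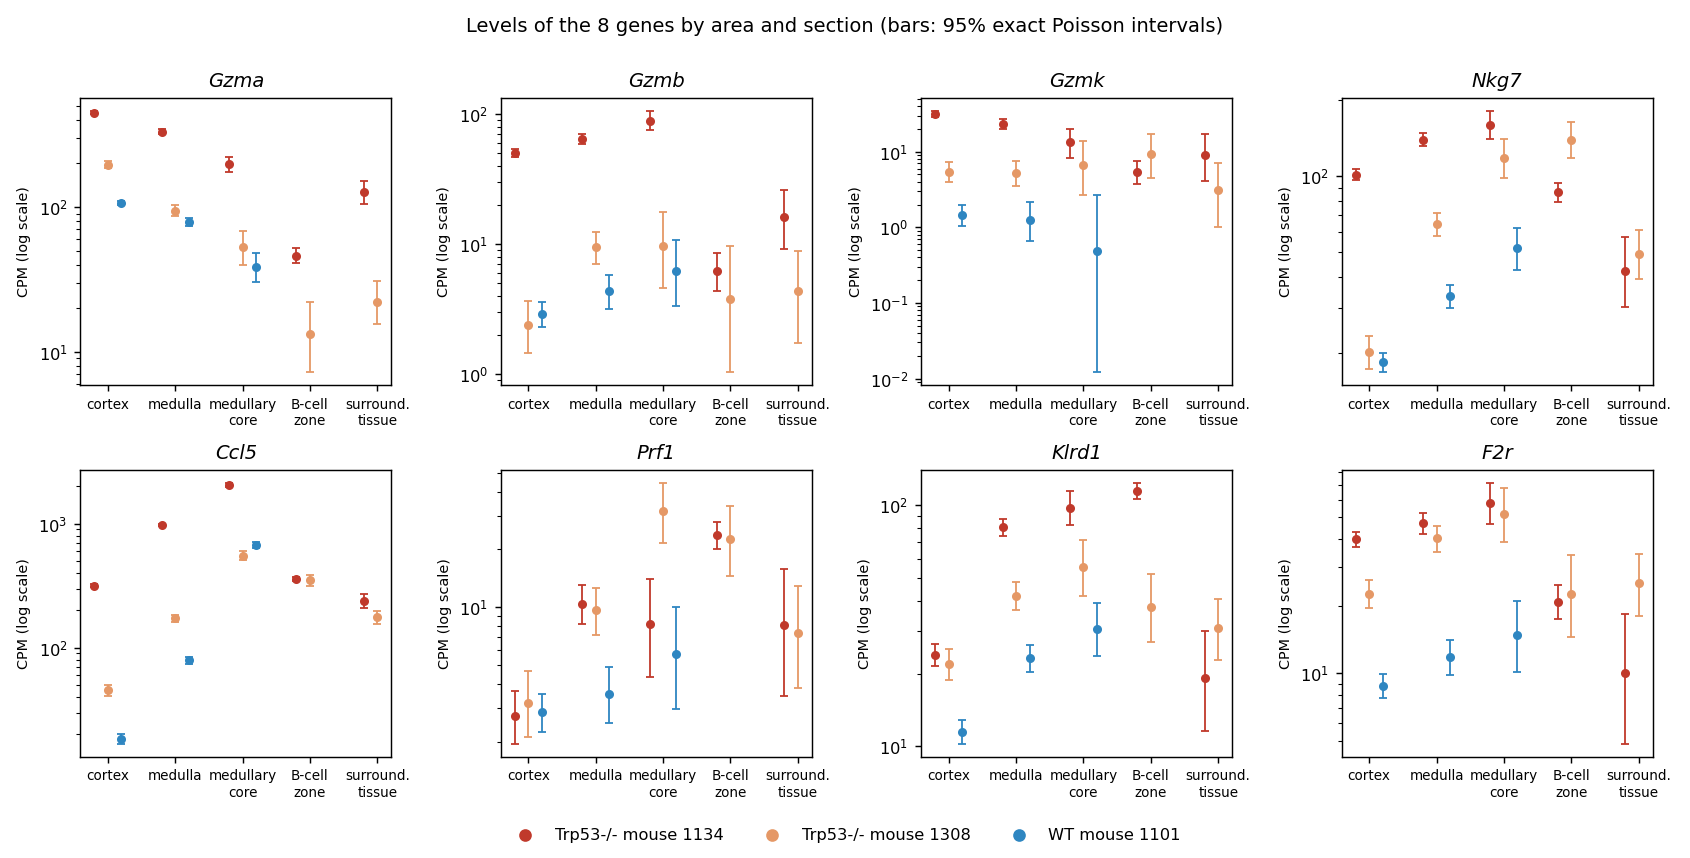
CPM of each of the 8 genes (log axes) by area in the 3 sections, with points for sections and bars for exact Poisson 95% intervals. WT has no B-cell zone, and its 94 bins of surrounding tissue are not drawn. Gzma was lower in the medulla than in the cortex of each section, whereas Ccl5 and Klrd1 climbed from cortex to medulla to medullary core.

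By compartment, drawn at the own cut of each section, the KO excess was not the same for each gene. In cortex, 3 of the 8 genes (Gzmk, Ccl5 and F2r) were at least 2-fold above WT in both KO sections, where 9.27% of 17240 genes were. In medulla 5 were (Gzmb, Gzmk, Ccl5, Prf1 and F2r), where 9.58% of 15995 genes were. Prf1 stood at 2.73 and 3.21 CPM in KO cortex against 2.86 in WT, with ratios of 0.955 (0.639 to 1.41) and 1.12 (0.696 to 1.75), whereas in medulla it stood at 10.4 and 9.65 against 3.55, with ratios of 2.94 (1.96 to 4.48) and 2.72 (1.76 to 4.26). Its excess in both KO mice was thus seen in the area called medulla, which leaves out the medullary core. It was not detectable in the cortex at this depth, and the difference between the areas was not tested. Gzmb in KO1308 went the same way, with 2.37 CPM against 2.90 in cortex (ratio 0.820, 0.476 to 1.35) and 9.47 against 4.31 in medulla (2.20, 1.44 to 3.35). Nkg7 in KO1308 did too, with ratios of 1.10 (0.918 to 1.31) in cortex and 1.92 (1.65 to 2.23) in medulla.

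Gzma showed the opposite tilt in KO1308. It stood at 196 CPM against 106 in cortex, 1.84-fold (1.74 to 1.96), and at 94.0 against 78.7 in medulla, 1.19-fold (1.07 to 1.34). KO1134 showed no such tilt, with 446 CPM in cortex and 330 in medulla, 4.20-fold and 4.19-fold above WT. F2r was above WT in both areas of both KO sections: 39.8 and 22.8 CPM against 8.79 in cortex, and 47.0 and 40.3 against 11.8 in medulla, with ratios of 4.53, 2.59, 3.98 and 3.41. Klrd1 was likewise above in all 4, by 2.09-fold and 1.90-fold in cortex and 3.49-fold and 1.81-fold in medulla.

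**Figure D3:**
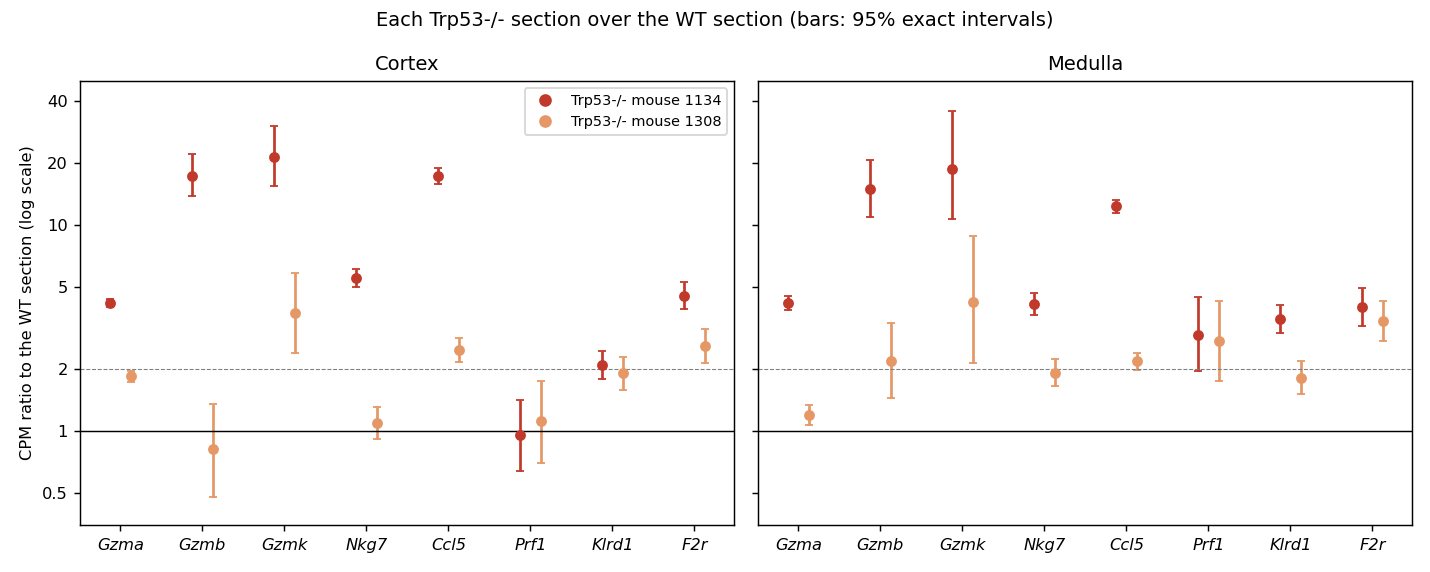
Ratio of CPM in each KO section to the WT section (log axis) for the 8 genes in cortex (left) and medulla (right), with exact 95% intervals. Points of KO1308 for Gzmb, Nkg7 and Prf1 sat near 1 in the cortex and above 1 in the medulla, and both KO points of F2r sat above 2 in both areas.

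Within a section, the 8 genes split between cortex and medulla. Gzma was lower in medulla than in cortex in all 3 sections, with medulla to cortex ratios of 0.740 (0.706 to 0.775), 0.480 (0.434 to 0.530) and 0.740 (0.684 to 0.800). Gzmk had ratios of 0.742, 0.967 and 0.850, and the intervals of the last 2 spanned 1. These were 2 of the 8 genes with a ratio below 1 in every section, a side on which 26.4% of 14131 genes fell. At least 2-fold higher in medulla were Ccl5, Prf1 and Klrd1 in KO1134, where 8.62% of genes were, Gzmb, Nkg7, Ccl5 and Prf1 in KO1308, where 8.78% were, and Ccl5 and Klrd1 in WT, where 6.17% were. Ccl5 was the only one past that fold in every section, at 3.08, 3.79 and 4.31. The size of this ratio depended on how the areas were drawn: with a stricter thymus area it was 1.60 in WT and from 1.86 to 2.82 in the KO sections, under 2-fold in 2 of the 3, and with the medullary core joined to the medulla it was 9.67 in WT and from 3.68 to 5.13 in the KO sections. Prf1 had ratios of 3.82 (2.58 to 5.72) and 3.01 (1.86 to 4.98) in the KO sections and 1.24 (0.816 to 1.85) in WT. F2r had ratios of 1.18, 1.77 and 1.34, and with the stricter thymus area the WT ratio turned to 0.857 while the KO mean was 1.10. The sum of 7 had ratios of 1.67, 1.35 and 1.38, which rested on Ccl5: without it they were 0.946 for the mean of the KO sections and 1.01 for WT.

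Distance from the border between cortex and medulla ordered the genes more finely, with the medullary core counted as medulla. Gzma fell from 470 CPM in cortex over 200 µm from the border to 203 in medulla over 200 µm from it in KO1134, from 262 to 40.1 in KO1308 and from 119 to 48.5 in WT. In KO1308 and WT it was lower in each zone than in the one before, and in the deepest zone KO1308 was no longer above WT. Ccl5 went the other way, from 283 to 1544 CPM, from 29.8 to 435 and from 12.6 to 500. Klrd1 went from 22.4 to 111, from 15.8 to 56.0 and from 9.83 to 27.6, and Nkg7 from 94.7 to 157, from 21.9 to 100 and from 14.4 to 49.0. F2r went from 19.6 to 56.0 in KO1308, whereas in KO1134 it stayed between 36.6 and 56.1 and in WT between 8.42 and 17.4. Gzma and Ccl5 thus ran in opposite directions in the WT section as well as in the KO sections.

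**Figure D4:**
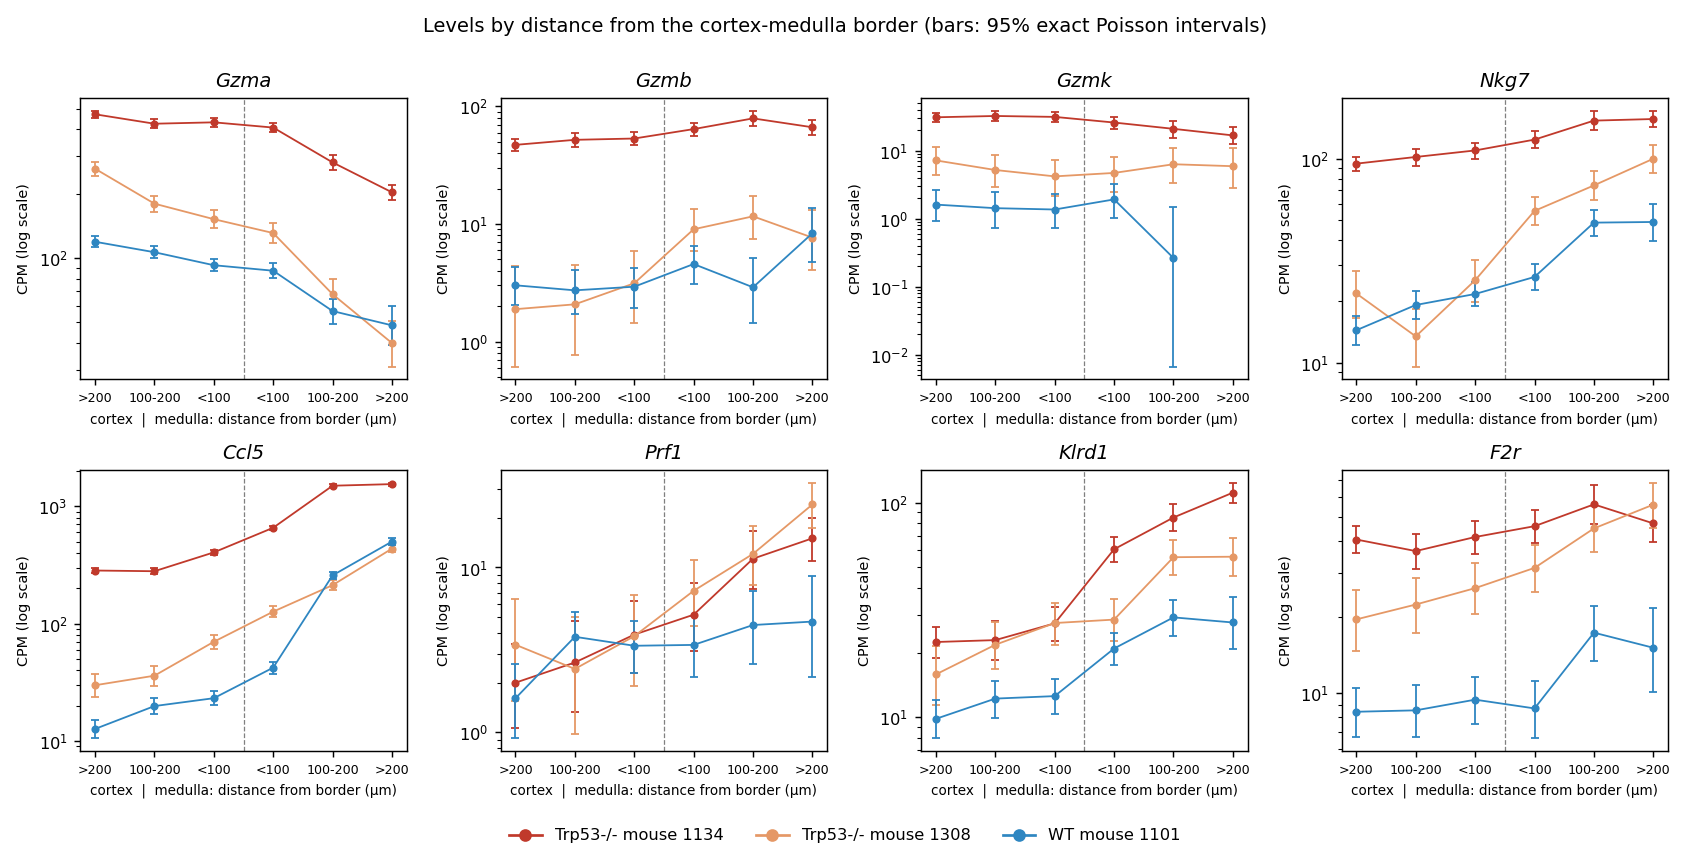
CPM of the members (log axes) in 6 zones by distance from the border, from deep cortex to deep medulla, in the 3 sections, with exact Poisson 95% intervals. From the first to the last zone Gzma ended lower and Ccl5 ended higher in each section, and the deepest WT zone of Gzmk, listed at 0, is not drawn.

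The medullary core carried the highest Ccl5 in each section. It stood at 2064 CPM (1994 to 2136) in KO1134, 554 (510 to 601) in KO1308 and 671 (637 to 708) in WT, so there KO1308 was below WT, with a ratio of 0.825 (0.747 to 0.909). Ccl5 gave 78.5%, 66.9% and 83.4% of the UMIs of the 7 genes in the core. For F2r the core ratios were 3.91 (2.58 to 6.07) and 3.47 (2.19 to 5.58), much as in the medulla. Prf1 reached 31.6 CPM in the core of KO1308, against 8.22 in KO1134 and 5.76 in WT, from 33, 13 and 12 UMIs. Its core ratio to WT was 5.48 in KO1308, with an interval above 1, and 1.43 in KO1134, with an interval spanning 1. Unlike in the medulla, an excess of Prf1 was thus not detectable in the core of KO1134. In the B-cell zone of the KO sections Gzma was low, at 46.0 and 13.3 CPM, 0.139 and 0.141 times the medulla of the same section, whereas Prf1 was 2.28 and 2.35 times the medulla. The KO sections lay on opposite sides of 1 for Ccl5, at 0.369 and 2.02 times the medulla, and for Nkg7, at 0.619 and 2.16. So did the sum of the 7 genes, at 0.395 and 1.45. Klrd1 reached 115 CPM in the B-cell zone of KO1134 and 37.9 in that of KO1308. In the surrounding tissue F2r stood at 10.1 and 25.3 CPM.

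Cortical Gzma in KO1308 varied over its tiles and differed between its 2 main tissue pieces. The cortex was divided into tiles of 270 µm with at least 50 cortex bins, which gave 53, 70 and 161 tiles. Gzma ranged from 236 to 624 CPM (median 462) in KO1134, from 0 to 643 (median 147) in KO1308 and from 0 to 228 (median 97.8) in WT. All 53 tiles of KO1134 were above the highest WT tile, against 23 of 70 in KO1308, and all 23 lay in the larger of its 2 main tissue pieces. Those 23 tiles held 414 CPM of Gzma (389 to 441), and the other 47 held 116 (106 to 127). The tiles were chosen by their Gzma, so this gap follows in part from the choice and is a description with no test. Between the 2 pieces of KO1308, Gzma stood at 234 CPM (222 to 247) and 93.0 (80.6 to 107) in cortex and at 136 and 56.9 in medulla. Other members are set beside it: Ccl5 stood at 37.0 CPM in the 23 tiles and 38.8 in the rest, F2r at 21.7 and 22.0, and Gzmk at 9.35 (5.86 to 14.2) and 3.08 (1.64 to 5.27).

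Immature T cell genes were lower in those tiles. Rag1, needed to rearrange T cell receptor genes, stood at 236 CPM in the 23 tiles and 555 in the rest, the CD8 genes (Cd8a and Cd8b1) at 820 and 2139, the CD3 genes (Cd3d, Cd3e and Cd3g) at 680 and 1178, and Dntt at 602 and 1010. The gamma-delta genes were close, at 337 (314 to 361) and 310 (293 to 327), and Trdc alone was lower, at 38.2 and 81.3. Macrophage genes stood at 457 and 328, endothelial genes at 106 and 153 and adipocyte genes at 185 and 755. The mean depth of the tiles was 1319 and 1166 UMIs per bin. Of the other 47 tiles only 31 lay in the larger piece, so the contrast is in part one between pieces. Cortex Rag1 stood at 407 CPM in the larger piece and 524.5 in the smaller. Over tiles, the Spearman correlation of Gzma with Rag1 was 0.00 in KO1134 (53 tiles), -0.70 in KO1308 (70 tiles) and -0.32 in WT (161 tiles). With the gamma-delta genes it was 0.35, 0.21 and 0.49. With the mean UMIs per bin it was 0.24, 0.41 and 0.38. Tiles of a section share 1 library, and neighbours share tissue, so these are descriptions.

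Bins shared with CD3 genes were examined next, by the level of the members in bins with and without a CD3 UMI. A bin without a CD3 UMI can still hold T cells, so the split cannot say whether the members lay in T cells. At least 1 CD3 UMI was found in 71.2% of thymus bins of KO1134, 50.8% of KO1308 and 78.1% of WT, and bins with one were deeper, with medians of 2907, 1127 and 1631 UMIs against 1814, 645 and 736. Summed over the 7 genes, the CPM of bins with a CD3 UMI was 1.02 (0.988 to 1.05), 0.925 (0.872 to 0.982) and 0.961 (0.896 to 1.03) times that of bins without. Of the bins with any of the 7, 74.9%, 57.8% and 86.3% held a CD3 UMI, against 76.1%, 64.1% and 86.8% of bins of matched depth with none of the 7. The difference between these shares was not tested. The side of 1 depended on the bin size: in bins of 50 µm the ratio of the 7 genes was above 1 in all 3 sections, with a mean of 1.18 against 0.968.

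Single members differed by section and area. Gzma had a ratio of 1.20 (1.09 to 1.34) in WT, 1.05 (1.00 to 1.11) in KO1134 and 0.968 (0.888 to 1.06) in KO1308, where the cortex alone gave 0.841 (0.760 to 0.932). Ccl5 had ratios of 0.971 (0.929 to 1.01), 0.877 (0.785 to 0.980) and 0.601 (0.524 to 0.690) over the thymus, which joins areas that differ in both Ccl5 and CD3. Within the medulla alone they were 1.14 (1.07 to 1.20), 1.13 (0.994 to 1.29) and 0.707 (0.604 to 0.830), and within the cortex 0.898 (0.838 to 0.963), 0.926 (0.747 to 1.15) and 1.07 (0.799 to 1.47), so the value lay on different sides of 1 in the 2 areas of each section, with 3 of the 6 intervals spanning 1. In the medullary core, where Ccl5 was highest, Ccl5 was higher with CD3 in each section, at 1.45 (1.33 to 1.58), 1.65 (1.38 to 1.97) and 1.51 (1.34 to 1.71). Within the medulla of KO1134, Nkg7 had a ratio of 1.30 (1.11 to 1.52) and Klrd1 1.37 (1.11 to 1.69), against 1.09 (0.883 to 1.36) and 0.976 (0.748 to 1.27) in KO1308 and 1.06 (0.811 to 1.41) and 0.949 (0.692 to 1.32) in WT. F2r was lower with CD3 in KO1134, at 0.821 (0.708 to 0.956), with 0.957 (0.782 to 1.17) in KO1308 and 0.771 (0.582 to 1.04) in WT, and its mean over the sections turned from 0.850 to 1.11 in bins of 50 µm.

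In the surrounding tissue fewer bins held CD3, and the intervals of Ccl5 and Nkg7 did not overlap between the KO sections. In the fat-rich surrounding tissue of KO1308, where 24.8% of bins held a CD3 UMI, the ratio was 4.34 (3.40 to 5.55) for Ccl5, 3.45 (1.90 to 6.32) for Klrd1 and 3.31 (2.08 to 5.30) for Nkg7. For Gzma it was 1.72 (0.816 to 3.52) and for F2r 1.56 (0.770 to 3.06). In that of KO1134, where 21.7% of bins did, it was 1.68 (1.27 to 2.21) for Ccl5, 2.33 (0.813 to 6.35) for Klrd1, 0.640 (0.240 to 1.46) for Nkg7 0.967 (0.615 to 1.48) for Gzma and 0.356 (0.00811 to 2.57) for F2r, the last from 10 UMIs. In the B-cell zones Ccl5 and Nkg7 were higher with CD3 in both sections, at 1.33 (1.16 to 1.52) and 1.80 (1.39 to 2.36) for Ccl5 and 1.87 (1.37 to 2.62) and 1.67 (1.11 to 2.56) for Nkg7. Prf1 and Klrd1 were higher there in KO1134, at 4.66 (1.95 to 14.6) and 3.17 (2.25 to 4.58), but stood at 0.890 (0.359 to 2.40) and 1.04 (0.511 to 2.24) in KO1308. Gzma was lower with CD3 in the B-cell zone of KO1134, at 0.476 (0.363 to 0.630), and stood at 1.11 (0.321 to 4.86) in that of KO1308, from 14 UMIs.

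**Figure D5:**
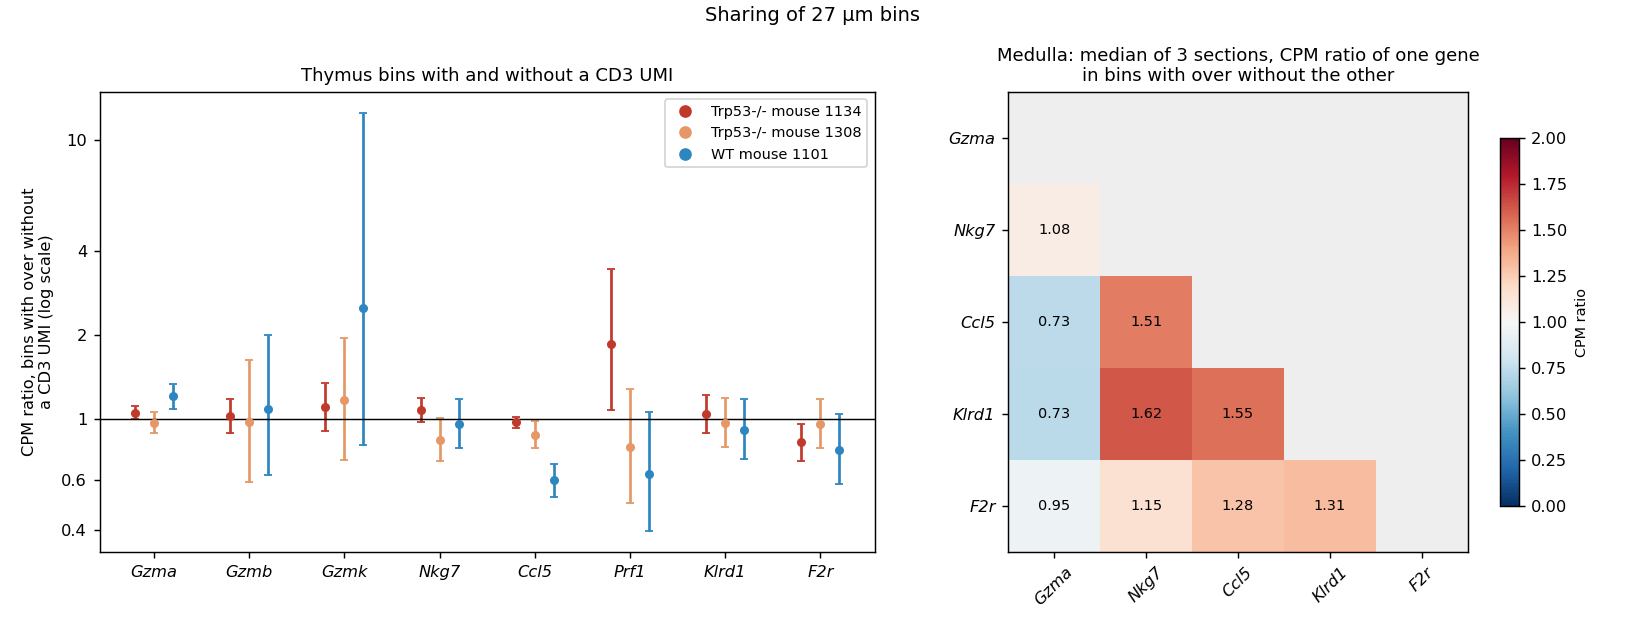
Left, the CPM of each member in thymus bins with a CD3 UMI over that in bins without (log axis) for the 3 sections, with exact 95% intervals. Right, for the 5 members with at least 100 medulla UMIs in every section, the median over sections of the CPM of 1 gene in bins with over bins without the other: Ccl5, Nkg7 and Klrd1 lay above 1 with each other, and Gzma lay below 1 with Ccl5 and Klrd1. Bins were not matched for depth or for position within the medulla.

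Among themselves, Ccl5, Nkg7 and Klrd1 were higher in each other's bins in the medulla, and Gzma showed no such excess with them. Gzma still lay in 1060 medulla bins with Ccl5 and 442 with Nkg7, against 685 bins with both Ccl5 and Nkg7, and its ratio with Nkg7 ran from 0.951 to 1.10 with every interval spanning 1. In medulla bins with a Ccl5 UMI, Klrd1 was 1.37, 1.79 and 1.55 times its CPM in bins without, with each interval above 1, and Nkg7 was 1.51, 1.65 and 1.40 times, with the first 2 intervals above 1. In cortex the Nkg7 ratios were 1.31, 2.09 and 1.59, all 3 intervals above 1. Gzma in those Ccl5 bins of the medulla was at 1.00 (0.917 to 1.10), 0.735 (0.562 to 0.949) and 0.687 (0.497 to 0.929), and in the cortex at 1.01, 1.01 and 0.982 with every interval spanning 1. Klrd1 in medulla bins with a Gzma UMI was at 0.754 (0.639 to 0.889), 0.732 (0.419 to 1.20) and 0.686 (0.405 to 1.10). The pair of granzyme A and its database partner showed no excess of shared bins: F2r in bins with a Gzma UMI was at 1.00, 0.927 and 0.843 in cortex and 1.09, 0.917 and 0.951 in medulla, with all 6 intervals spanning 1. The widest of those intervals ran from 0.491 to 1.69. By distance from the border, Ccl5, Nkg7 and Klrd1 ended higher and Gzma lower toward deep medulla. The part of depth and of position within an area in these pair ratios was not tested.

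Bins were also compared by the genes of other cells. In medulla bins with a Gzma UMI the mature T cell genes (Ccr7, Il7r, S1pr1, Klf2 and Ms4a4b) were lower in all 3 sections, at 0.643, 0.799 and 0.748 times their CPM elsewhere, and the gamma-delta genes were at 1.47 (1.40 to 1.55), 1.14 (0.958 to 1.34) and 1.16 (0.983 to 1.36). The mature T cell genes were higher in bins with Nkg7, at 1.13, 1.18 and 1.37, and in bins with Ccl5, at 1.07, 1.15 and 1.55. The CD8 genes were below 1 in medulla bins with Ccl5 in all 3 sections, at 0.939 (0.841 to 1.05), 0.840 (0.774 to 0.910) and 0.743 (0.707 to 0.781), and with Gzmb, at 0.762 (0.653 to 0.886), 0.608 (0.423 to 0.846) and 0.954 (0.812 to 1.11). With Prf1, Klrd1, Nkg7 and Gzma, KO1134 stood on the other side of 1 from the other sections. In the medulla of KO1134 they were 2.66 (2.19 to 3.21) times as high in bins with Prf1, 1.93 times with Klrd1, 1.43 times with Nkg7 and 0.513 times with Gzma, whereas in KO1308 and WT they were at 0.759 (0.544 to 1.03) and 0.822 (0.672 to 0.997) with Prf1, 0.767 and 0.927 with Klrd1, 0.878 and 0.894 with Nkg7 and 1.07 and 1.05 with Gzma. Bins with a member were deeper than those without, and the part of depth and of position within the medulla in these ratios was not tested. The macrophage and mural cell genes were also higher in medulla bins with Ccl5 in all 3 sections, by 1.08 to 1.36 times and 1.19 to 1.60 times. In the same bins dendritic cell genes ran from 1.23 to 1.99, fibroblast genes from 1.09 to 1.38 and B cell genes from 1.13 to 1.35. Each of these lists had 2 of 3 intervals above 1. In medulla bins with F2r no list had an interval clear of 1 on the same side in all 3 sections. Endothelial genes were above 1 in each, at 1.09 (0.896 to 1.31), 1.34 (0.999 to 1.77) and 1.49 (1.04 to 2.08), with the WT interval alone clear of 1. In cortex bins with F2r they ran from 0.942 to 1.31, with 0 intervals clear of 1. The CD8 genes in medulla bins with F2r ran from 0.824 to 1.13, with 2 of 3 intervals below 1. Platelet genes were at 1.42 (0.875 to 2.20), 1.02 (0.325 to 2.46) and 1.23 (0.333 to 3.21). The NK list summed to 11.7, 16.7 and 8.61 CPM in cortex and 35.2, 35.5 and 14.1 in medulla. Its genes did not share 1 order of sections over the whole thymus area. Klrb1c had 164, 131 and 256 UMIs, Klre1 had 186, 88 and 106, and Eomes had 64, 63 and 7. Klra8 had 6, 47 and 12, Klra4 had 4, 5 and 6, and Ncr1 had 11, 2 and 1.

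Genes around the members were taken from lists and counted over cortex and medulla, where 12.0% of all genes were at least 2-fold above WT in both KO sections and 1.84% at least 2-fold below. Of 7 other granzyme genes only Gzmm had the 50 UMIs to be counted, and it was higher, by 2.89-fold and 2.36-fold. Gzmc had 16, 4 and 12 UMIs, Gzmd had 6, 0 and 0, and Gzme, Gzmf, Gzmg and Gzmn had 0 in all 3, though reads of these near copies may be hard to assign. Of 14 genes of granules and killing, 4 were higher (Ctsw, Fasl, Ifng and Tnfsf10, named, like other called genes outside the 4 with most UMIs of a list, after their values were seen). Among the 4 with most UMIs, Srgn, the granule proteoglycan, had ratios of 4.14 and 1.29, Lamp1 1.23 and 1.02, Ctsc, the protease that activates granzymes, 2.02 and 1.91, and Stxbp2 0.844 and 1.19.

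Of 9 regulators of the cytotoxic programme 8 were higher, with a median ratio of 2.90 and 3.24. Id2 had ratios of 2.32 and 3.26, Il2rb, a chain of the interleukin 15 receptor, 3.03 and 6.28, Runx3 7.76 and 2.63, and Il15ra 2.31 and 3.24. Zeb2, at 2.36 and 1.99, was the 1 not called. Of 8 chemokine genes and receptors, 6 were higher. Cxcr6, a receptor of tissue-resident T cells, had ratios of 9.35 and 15.1, Cxcr3 6.70 and 6.17, and Ccl4 2.77 and 3.44. Of 11 NK and killer lectin receptors counted, 3 were higher, Klrk1, Klrg1 and Klre1. Klrk1 had ratios of 3.33 and 2.97, Hcst 2.16 and 1.21, Klra9 0.884 and 2.70, and the adaptor Tyrobp 2.65 and 0.840. Klra9 is 1 of several near-identical Klra genes, among which reads can be hard to assign, so its values are uncertain.

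The genes around F2r were counted in the same way. Its relatives F2rl1 and F2rl3 had ratios of 1.18 and 2.05 and of 2.76 and 1.96, so neither was called, and F2rl2 had 19, 11 and 9 UMIs. Of 11 genes of the thrombin pathway counted, 3 were higher, and these were F3, which starts coagulation as tissue factor, at 2.97 and 8.77, and the plasminogen activators Plat, at 2.15 and 4.24, and Plau, at 2.16 and 6.14. Thrombin itself, F2, had 30, 13 and 30 UMIs. Serpine2, an inhibitor of thrombin, had ratios of 2.76 and 1.00, Pros1 2.20 and 1.98, and Thbd 2.67 and 1.37. Of 10 genes that couple the receptor to the cell, 1 was higher, Arhgef12, at 2.61 and 2.25. The G protein genes Gnaq, at 0.662 and 0.644, and Gnai2, at 0.679 and 1.03, the exchange factor Arhgef1, at 0.548 and 0.747, and Rhoa, at 0.689 and 0.799, were not called.

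Over the 11 values of section by compartment (cortex, medulla, B-cell zone and outside thymus), the genes whose log2 CPM ran most alike with the 7 genes among 17395 were Gbp10, Ifih1, Mageh1, Parp12 and Tmbim4, with Pearson r from 0.936 to 0.947. For F2r they were Hic1, Podnl1, Phlpp1, Crtap and Nfic, with r from 0.944 to 0.961. The compartments of a section share its library and depth, and the r is a description of these points.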

How the data were processed

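The authors deposited UMI counts per gene and capture spot for each section, made by aligning reads to GRCm38 (builds as listed in the submitters' processing notes) and counting molecular identifiers per spot with BSTMatrix and STAR, per the study's methods. The counts are whole numbers without normalization. The authors' removal of folded spots was not repeated. Spots were joined here into bins of 27 µm, bins under 300 genes or over 30% mitochondrial UMIs were left out, and bins in connected groups of under 200 bins were also left out. Areas came from marker genes summed over windows of 7 × 7 bins (189 µm): Themis, Arpp21, Ptcra, Cd8b1, Prss16 and Psmb11 for thymus, Cd79a, Cd79b and Ms4a1 for the B-cell zone, and Krt5, Krt14, Ccl21a, Epcam and Cldn4 against Prss16, Psmb11, Ccl25, Ly75, Arpp21 and Ptcra for medulla against cortex. Windows counted as thymus from 50% of the thymus gene share of their own section. Medulla lay above the share of the medulla genes, among both sets, over the thymus area of the section. That cut was 28.3% in KO1134, 24.9% in KO1308 and 7.81% in WT. Levels are CPM over the summed UMIs of an area. The section depth was 31237062, 21089885 and 41581477 UMIs for KO1134, KO1308 and WT. The 3 libraries shared 244006, 345766 and 903622 spot names in pairs, which are slide positions and not shared cells. Intervals are exact Poisson or exact conditional binomial intervals at 95% (scipy 1.17.1, numpy 2.4.6, pandas 2.3.3, Python 3.11.15). Shares at equal depth used bins thinned to 500 UMIs. Genes were counted as higher or lower from 50 UMIs and a 2-fold ratio in both KO sections. The scripts were tested on simulated counts. All 8 members are named, with the 5 genes most alike (from 100 UMIs, log2(CPM + 1)) and up to 4 genes with most UMIs per list. 1 gene that this rule names is not reported here. The members and lists were chosen with earlier results of these data known.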

Additional observations from a re-analysis of the deposited data

Results flagged for a closer look

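Bins that the filters left out (under 300 genes, over 30% mitochondrial UMIs or in small groups), which no comparison above uses, also held UMIs of the members. These bins can lie on tissue or beside it. In those of KO1134 the 7 cytotoxic genes stood at 866 CPM (697 to 1063), against 164 (140 to 191) in those of WT, from 105141 and 1004967 UMIs in all, and the thymus of KO1134 stood at 1188 CPM. In those of KO1308, with 3453677 UMIs, F2r stood at 26.9 CPM (21.7 to 33.0), against 8.96 (4.10 to 17.0) in WT, and the thymus of KO1308 stood at 29.7 CPM. The part of RNA spread between bins in these values was not tested.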

How the results depend on the processing

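No paired analysis was possible because the comparisons between sections come from no test and there is 1 WT section. The KO to WT ratio of the 7 genes kept its direction in 13 of 13 alternatives (3.11 to 4.45) and that of F2r in 12 of 12 (3.57 to 3.81). Leaving out 1 KO section gave 1.88 to 6.65 for the 7 genes and 3.09 to 4.39 for F2r. The medulla to cortex ratio of the 7 genes in WT (1.38) was 1.28 with windows of 5 × 5 bins, 1.52 with 11 × 11 bins, 1.06 with a stricter thymus area, 1.48 with bins thinned to 500 UMIs and 1.01 without Ccl5. With the medullary core joined to the medulla, an alternative chosen after seeing the data, it was 1.98. For the KO mean (1.51) it was 1.24 with the stricter area and 0.946 without Ccl5, and 1.35 to 1.67 with 1 KO section left out, against 1.18 to 1.77 for F2r. The CD3 ratio of the 7 genes (0.968) was 1.18 in bins of 50 µm and 1.03 within medulla, and that of F2r (0.850) was 1.11 in bins of 50 µm, 0.983 thinned and 0.957 within cortex. The cause of these moves was not tested. Each of the 8 genes kept a KO to WT ratio above 1 in 12 of 12 alternatives, with Prf1 as low as 1.11. The mean ratio of Ccl5 (9.03) was as low as 5.64. Gzma kept its medulla to cortex ratio below 1 in 12 of 12. Gzmk lost its side of 1 in some alternatives (8 of 12 kept it in WT). Depth limits Gzmb, Gzmk and Prf1, with 126, 54 and 117 WT thymus UMIs.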
